A study of Mus musculus with 6 samples.

Results

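Otx2, Fgf5, Pou3f1, Eomes, Gata6, Sox17 and Meis1 are 7 early lineage and primed state genes, taken by symbol from a nuclear RNA table of 23281 genes. Each matched 1 row: Otx2 is ENSMUSG00000021848, Fgf5 ENSMUSG00000029337, Pou3f1 ENSMUSG00000090125, Eomes ENSMUSG00000032446, Gata6 ENSMUSG00000005836, Sox17 ENSMUSG00000025902 and Meis1 ENSMUSG00000020160. They were followed through a 4sU pulse and washout in female cells of 129S X Cast background kept in ES medium. In SLAM-seq, cells take up 4-thiouridine (4sU) in place of uridine, iodoacetamide alkylates it in the extracted RNA, and labelled RNA is then read from T-to-C (T>C) conversions. Per the labels, a TetOn promoter stood in place of the endogenous Xist promoter on the 129S allele, and a Bgl-stem-loop sat at the Xist 3'-end. All 6 cultures carried these alleles and were induced with doxycycline at 1 µg/ml for 17.5 to 20 h. They were then labelled with 500 µM 4sU for 4 h with doxycycline present. The 0 min culture was not washed, and the others spent 30, 60, 90, 120 or 150 min in medium with 50 mM uridine and doxycycline. Each time had 1 library and no replicate, so no spread between cultures can be given. The labels name no cell line and do not say whether the cells were 1 clone.

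Otx2, Fgf5 and Pou3f1 are known from the step in which naive pluripotent cells become primed epiblast. Otx2 is a homeobox factor that directs enhancers in that step, Fgf5 is the secreted growth factor used as its marker, and Pou3f1 (Oct6) is a POU factor of epiblast and neural progenitors. Eomes is a T-box factor of the primitive streak and of trophoblast, Gata6 is a zinc finger factor that specifies primitive endoderm, and Sox17 is an HMG-box factor of endoderm. Meis1 is a TALE homeobox cofactor of Hox and Pbx proteins. Embryonic stem cells are known to express such genes weakly or in a small fraction of cells, and in bulk RNA fewer cells of a type and less RNA per cell cannot be told apart.

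Reads counted over the 23281 genes came to 18558073 to 28535162 per library. The summed level of 14 embryonic stem cell markers was 3422 to 3782 CPM, a count scaled to the library's total, and all 14 had enough reads to be tested. Markers of the feeder fibroblasts summed to 773 to 1057 CPM over 20 genes, of which Lum had under 30 reads in all. Markers of trophoblast summed to 113 to 147 over 10 genes, and the defining marker Cdx2 had under 30 reads in all. The part of feeder RNA in the values below was not tested. The library read as 60 min stood apart, with a T>C rate over all genes of 4.11%, against 2.69% in the library read as 30 min and 4.05% at 0 min. The T>C rate at 90, 120 and 150 min was 2.57%, 1.55% and 1.17%. The deposited columns carry a bare number, matched here to the titles by dropping the part of the washout time that all titles end with, and each slope rests on that match.

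The annotation places Otx2 on chromosome 14 (48657677 to 48673819, minus strand, mm10), Eomes on chromosome 9 (118478212 to 118486132, plus strand) and Meis1 on chromosome 11 (18879817 to 19018985, minus strand). Fgf5 lies on chromosome 5 (98254184 to 98277030, plus strand), Pou3f1 on chromosome 4 (124656807 to 124660655, plus strand) and Sox17 on chromosome 1 (4490931 to 4497354, minus strand). All 7 are annotated as protein coding. Their shapes differed widely: Pou3f1 is a single exon of 3849 nt, and Meis1 spans 139169 nt with 12 exons in its principal transcript. T made up 17.7% of the Pou3f1 transcript and 27.1% of the Meis1 transcript, and conversions can be seen only at T.

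The 3' UTR of each of the 7 principal transcripts held the pentamer ATTTA, the core of AU-rich elements, which are known to shorten the life of many mRNAs in the cytoplasm. Only the sense strand was searched, and overlapping matches were counted. Over the tested protein-coding genes 69.1% held it. In the last 300 nt, a window of equal length in each gene, 4 of 7 held it, against 45.1% of 9252 tested genes with a 3' UTR of at least 300 nt. That count is near the background and is a description only. Pou3f1 held 6 pentamers, Meis1 5, Fgf5 4, Gata6 4, Otx2 2, Sox17 2 and Eomes 1. Whether the pentamers bear on the loss of label was not tested. For each gene but Gata6, 30 bases of 3' UTR are shown that no other window of that length exceeded in pentamers. Other windows can hold as many, as in Otx2, Fgf5 and Meis1, where the site shown holds 1. Sites are from GENCODE M21 on mm10, 5′ to 3′ on the gene's strand, with each pentamer in capitals.
Otx2, chr14:48658173-48658202, minus strand: gatgcactactttATTTAaaaaaaaaaaaa
Pou3f1, chr4:124659700-124659729, plus strand: ttaATTTAaatcgctgtatgctgtATTTAt
Fgf5, chr5:98275696-98275725, plus strand: actgctttctaaaATTTAagtcgaaacaga
Eomes, chr9:118485259-118485288, plus strand: gctggattgattcATTTAtgggaaacgaga
Sox17, chr1:4491585-4491614, minus strand: ggcatataATTTAtggtaATTTAttttgtc
Meis1, chr11:18881037-18881066, minus strand: gcatgtctaattcATTTActcaccatattt

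Levels of the 7 genes lay in 3 steps. In RPKM, computed with the deposited gene length, Otx2 averaged 11.3 (5.52 to 16.3 over the 6 libraries) and stood above 76.4% of all genes. Meis1 averaged 1.27 (0.909 to 1.80), Eomes 1.26 (0.776 to 1.65), Fgf5 1.06 (0.567 to 1.58) and Pou3f1 1.00 (0.719 to 1.17). The ranges of these 4 overlapped, so their order is not fixed. The deposited length of Meis1 is 7553 nt, against 3346 nt for its principal transcript, so its level and the steps depend on the length used. Sox17 averaged 0.158 (0.0973 to 0.260) and Gata6 0.155 (0.0768 to 0.216), which overlapped each other and no other gene of the set. The depth followed: Otx2 had 3538 reads in all, Meis1 1355, Eomes 625, Pou3f1 543, Fgf5 369, Sox17 73 and Gata6 70.

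Only Otx2, Eomes and Meis1 had a mean of at least 100 reads per library, the minimum for the test, and all 3 lost label over the washout. The decay rate was minus the slope of ln(labelled share) on time, and limma tested it over all 11462 genes that passed the minimum. A half-life from it takes ln share to fall in a straight line. The median share of these genes was 46.8%, 45.8%, 44.5%, 39.3%, 27.7% and 21.1% in time order, so most of its fall came after 60 min. Half-lives here are therefore averages over the washout. The background was high, since 52.3% of those genes fell by the same rule, so a count of 3 of 3 is not a result about the set, and 0 of the 3 rose, against 1.19% of all genes. With a lower minimum of 30 reads Fgf5 and Pou3f1 fell as well, making 5 of 5 against 50.5% of 13477 genes, and 0 of the 5 rose, against 1.08%. With no replicate cultures, p-values here measure only scatter of libraries about a straight line, and limma draws each gene's variance toward that of all genes. Without the 60 min library Otx2, Eomes and Meis1 were all given an SE of 0.092 per h. The lowest adjusted p of Otx2 and of Eomes came from that fit, so it rests on the pooled variance. The RNA came from nuclei, so loss of label covers decay and export from the nucleus, which cannot be told apart.

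Among the primed epiblast genes, Otx2 had the most reads and the tightest values. Its labelled share, given by the authors as a posterior mean, was 83.5%, 60.2%, 70.8%, 31.9%, 17.3% and 14.9% in time order. The authors' 5% to 95% posterior range ran over 80.5 to 86.3% before washout and 12.3 to 17.7% at the end. The share was high through 60 min and low from 90 min on, with no overlap between the posterior ranges of these sets of libraries. Its reads were 581, 532, 329, 594, 812 and 690 in time order. Otx2 lost label at 0.751 ± 0.106 per h (SE, 6 libraries), which equals a half-life of 55.4 min (1 SE to either side, 48.5 to 64.5), with a limma adjusted p of 6.11e-05 and a faster loss than 91.5% of the genes tested. Over the alternatives tried the adjusted p was 5.74e-14 to 0.0106. The half-life was 36.9 min on the raw T>C rate and 83.2 min on labelled abundance, the share multiplied by the scaled reads.

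Fgf5 rested on few reads, 55, 43, 37, 73, 103 and 58 in time order. Its labelled share was 91.1%, 68.4%, 95.5%, 40.5%, 18.3% and 15.4%, with posterior ranges of 81.8 to 97.2% before washout and 7.15 to 25.8% at the end. The 0 and 60 min libraries held nearly fully labelled Fgf5 RNA and the last 2 time points little. It decayed at 0.783 per h, with a half-life of 53.1 min (1 SE by limma: 45.6 to 63.7). From its own scatter alone 1 SE spanned 43.5 to 68.2 min. With the minimum of 30 reads the limma adjusted p was 0.000578. Leaving out each library in turn gave half-lives of 44.9 to 58.2 min.

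Pou3f1 had 79, 76, 117, 86, 113 and 72 reads in time order. Its labelled share was 76.9%, 49.8%, 63.4%, 37.1%, 18.9% and 3.08%, with posterior ranges of 66.8 to 85.6% before washout and 0.22 to 8.81% at the end. The 150 min library was the lowest of the set, with 4 conversions in 1025 covered T positions and 0 in the 647 positions that both mates covered. It decayed at 1.12 per h, with a half-life of 37.3 min (1 SE by limma: 31.7 to 45.3). From its own scatter alone 1 SE spanned 29.2 to 51.6 min. With the minimum of 30 reads the limma adjusted p was 0.000719. That speed rested on the 150 min library, without which the half-life was 67.1 min.

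**Figure D1:**
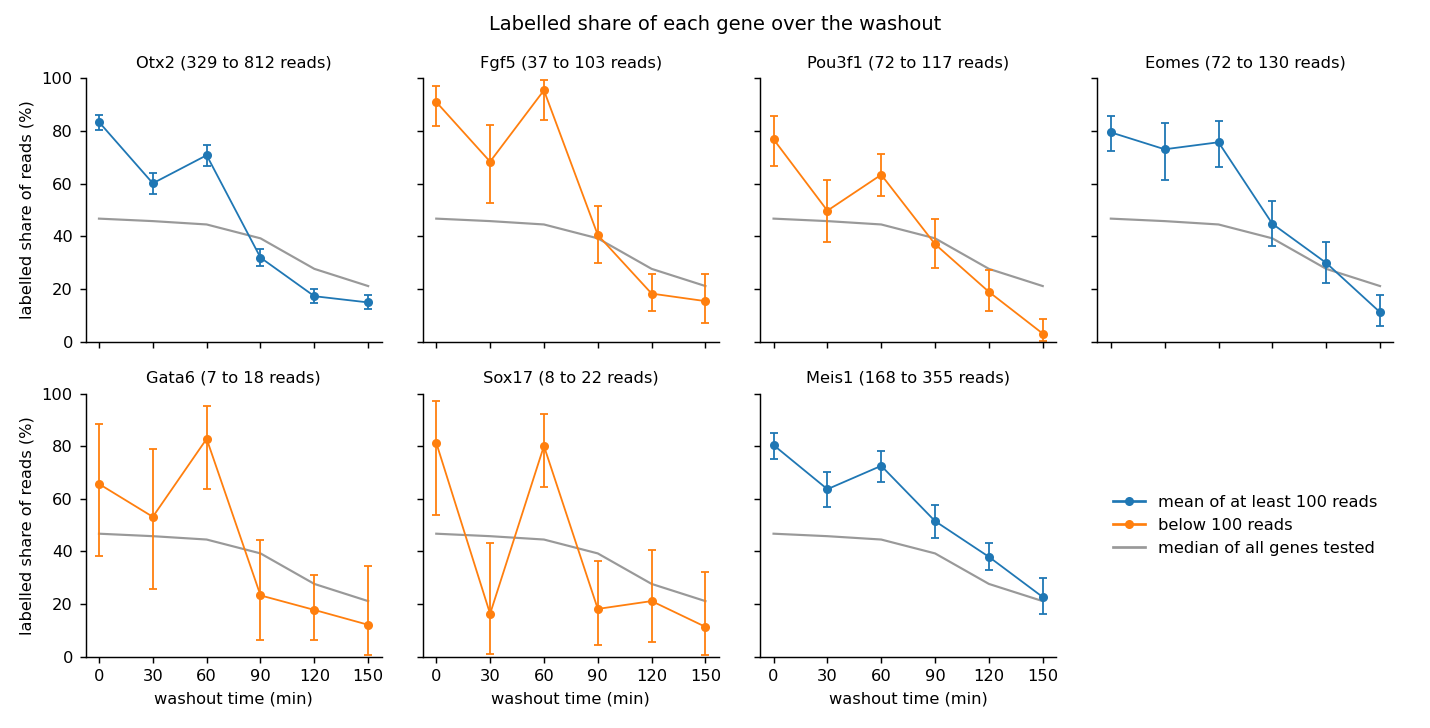
Labelled share of reads (%) against washout time (min), 1 panel per gene, with 1 library per time. Points are the authors' posterior means, bars their 5% to 95% range, blue panels have a mean of at least 100 reads, and the grey line is the median of the genes tested, which was 46.8% at 0 min and 21.1% at 150 min. Otx2 and Meis1 have narrow bars, whereas those of Gata6 and Sox17 span much of the axis.

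Among the mesendoderm and endoderm genes, only Eomes passed the read minimum, with 123, 79, 72, 112, 130 and 109 reads in time order. Its labelled share was 79.5%, 73.1%, 75.8%, 44.8%, 29.9% and 11.2%, with posterior ranges of 72.5 to 85.8% before washout and 5.96 to 17.6% at the end. The first 3 libraries lay within each other's posterior ranges, and the 150 min library lay below all the others. Eomes decayed at 0.743 ± 0.121 per h (SE, 6 libraries), or with a half-life of 56.0 min (48.1 to 66.9), with a limma adjusted p of 0.000135 and 7.58e-14 to 0.0269 over the alternatives tried. The half-life was 85.1 min without the 150 min library, 106 min with libraries weighted by the width of the posterior, and 35.4 min on the raw T>C rate.

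Gata6 (chromosome 18, 11052064 to 11085635, plus strand, mm10) and Sox17 had too few reads for a time course. Gata6 had 7, 12, 17, 8, 18 and 8 reads and Sox17 had 9, 8, 22, 12, 14 and 8 in time order. The labelled share of Gata6 was 65.7%, 53.2%, 82.8%, 23.3%, 17.8% and 12.2%, so the first 3 libraries were above the last 3, with a posterior range of 38.3 to 88.4% at 0 min. For Sox17 it was 81.3%, 16.3%, 80.1%, 18.2%, 21.2% and 11.4%, with the 30 min library as low as the later ones. At 150 min neither gene had a conversion, also where both mates covered the T. For Gata6 that was 0 of 139 covered T positions, which allows a rate of up to 2.16%, and for Sox17 0 of 186, which allows up to 1.61%. These limits take each position as independent, although they came from 8 reads of each gene. Their posterior means of 12.2% and 11.4% at that time therefore came without a converted base, and their lower bounds were 0.61% and 0.59%. With no read minimum at all, Gata6 fell (limma adjusted p = 0.00711, point estimate 56.0 min) and Sox17 did not pass (0.0839, point estimate 69.1 min), against 39.4% of 17412 genes that fell and 0.925% that rose by that rule. The Sox17 point estimate was 49.4 to 101 min with each library left out in turn.

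Meis1 was the slowest of the genes that could be tested. It had 231, 193, 179, 229, 355 and 168 reads in time order. Its labelled share was 80.4%, 63.7%, 72.5%, 51.5%, 38.0% and 22.7%, with posterior ranges of 75.3 to 85.1% before washout and 16.2 to 29.8% at the end. Its share started at the level of Otx2 and Eomes and stood above both from 90 min on. Meis1 decayed at 0.470 ± 0.098 per h (SE, 6 libraries), or with a half-life of 88.6 min (73.3 to 112), with a limma adjusted p of 0.000828 and 1.31e-06 to 0.0386 over the alternatives tried. It lost label faster than 73.0% of the genes tested.

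Differences between these 3 genes were tested within libraries, on the slope of the difference in ln share. A library deviation drops out of it only where it is of equal size in ln share for both sides. From 30 to 60 min the share rose in all 3 genes, while the median of the genes tested went from 45.8% to 44.5%. The odd order of these libraries can therefore remain in the differences, above all in those against the median. Of 6 comparisons, the 3 pairs and each gene against the median share of the tested genes in each library, 3 passed by a two-sided exact permutation of the times, whose smallest possible p is 0.00278. Eomes lost label faster than Meis1 by 0.273 ± 0.086 per h (exact p = 0.0222, adjusted p = 0.0444 over 6). Otx2 lost it faster than Meis1 by 0.282 ± 0.103 per h, which missed the threshold (exact p = 0.0583, adjusted p = 0.07). Otx2 and Eomes differed by 0.008 ± 0.157 per h (exact p = 0.967, adjusted p = 0.967), an error too wide to call them alike, and without the 150 min library they differed by 0.268 ± 0.072. Against the per-library median share, which declined at 0.320 per h, Otx2 was faster by 0.431 ± 0.103 (exact p = 0.0222, adjusted p = 0.0444) and Eomes by 0.423 ± 0.113 (exact p = 0.0167, adjusted p = 0.0444). Meis1 was faster than that median by 0.149 ± 0.050 and missed the threshold (exact p = 0.0444, adjusted p = 0.0667). With 1 library left out only 120 orderings remain, whose smallest p is 0.00833 or 0.0167, which leaves little room to pass after adjustment. That floor was not the only limit. Before adjustment the exact p was 0.0167 to 0.133 for Eomes minus Meis1. It was 0.0167 to 0.0833 for Otx2 minus the median and 0.0167 to 0.1 for Eomes minus the median. With all 720 orderings, none of the 3 passed on the raw T>C rate or the logit scale (exact permutation, adjusted p = 0.0556 to 0.129). The 3 calls are therefore fragile. Without the 150 min library Eomes minus Meis1 was 0.146 and Eomes minus the median 0.248 per h.

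Raw conversions need no model, and summed over libraries they allow the weak genes to be read. None of the 6 libraries was unlabelled, so no background of T>C mismatches was subtracted, and the rates are not label alone. Over 90 to 150 min, Otx2 had a T>C rate of 1.11% (95% exact binomial interval 1.01 to 1.21), against 6.88% (6.60 to 7.17) over 0 to 60 min. Fgf5 had 1.32% (0.993 to 1.72) late and 8.39% (7.34 to 9.54) early. Pou3f1 had 1.03% (0.752 to 1.39) late and 6.22% (5.54 to 6.95) early. In each of these the intervals were well apart. Eomes had 1.89% (1.58 to 2.24) late and 8.45% (7.71 to 9.24) early. Gata6 had 0.803% (0.261 to 1.86) late, from 5 conversions, and 5.39% (3.86 to 7.29) early, from 39. Sox17 had 0.805% (0.262 to 1.87) late, from 5 conversions, and 6.77% (5.00 to 8.93) early, from 46. Even the 2 weakest genes therefore had separate late and early intervals, which cover counting error only and not the spread between cultures. They also take each covered T as independent, although 1 read can hold several conversions. The early conversions came from 36 Gata6 and 39 Sox17 reads, so these intervals can be too narrow even for counting error. Meis1 had 2.14% (1.91 to 2.38) late and 5.85% (5.47 to 6.26) early, the smallest gap of the set. Late over early, the ratio was 0.119 for Sox17, 0.149 for Gata6, 0.157 for Fgf5, 0.161 for Otx2, 0.166 for Pou3f1, 0.223 for Eomes and 0.365 for Meis1, against 0.483 over all genes. These ratios have no interval, and those of Sox17 and Gata6 rest on 5 late conversions each, so their order is not fixed. The library read as 60 min gave 29 of 46 early conversions of Sox17 and 21 of 39 of Gata6, against 566 of 2149 for Otx2. The Sox17 rate at 30 min was 0.913%.

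**Figure D2:**
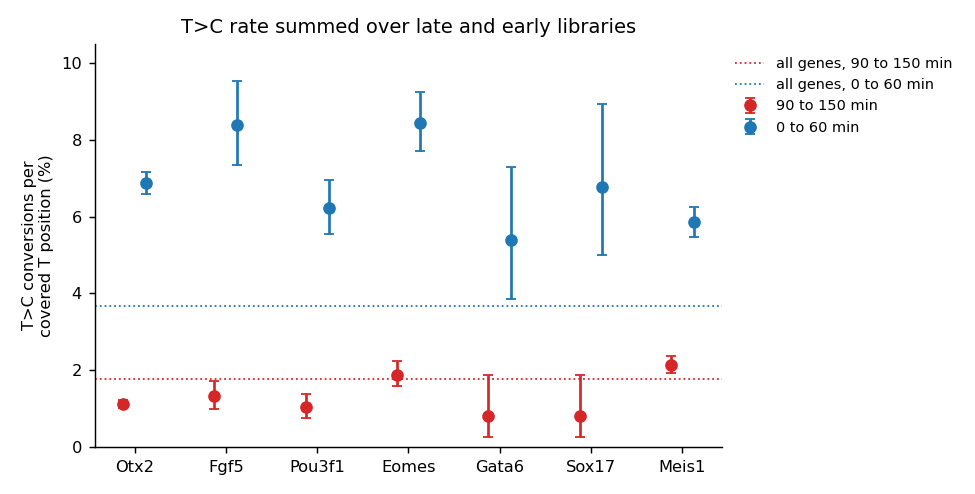
T>C conversions per covered T position (%), summed over the 90 to 150 min libraries (red) and the 0 to 60 min libraries (blue) for each gene. Bars are 95% exact binomial intervals and dotted lines the rate over all genes, 1.77% late and 3.66% early. All 7 genes lie above the early line, with intervals that clear it, while late values lie between 0.803% and 2.14%.

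Where both mates of a read pair covered the same T, a separate pair of columns, Otx2 went through 9.32%, 3.87%, 9.16%, 1.94%, 0.868% and 0.982% T>C in time order. The single-coverage columns gave 9.21%, 3.67%, 8.95%, 1.99%, 0.965% and 0.537%. Both sets placed the 60 min library near the 0 min library. In the labelled share, all 7 genes had a higher value at 60 than at 30 min, by 2.67 percentage points for Eomes, 8.87 for Meis1, 10.7 for Otx2, 13.7 for Pou3f1, 27.1 for Fgf5, 29.6 for Gata6 and 63.8 for Sox17. The same was true of 77.0% of the genes that fell and of 47.1% of all genes tested. With the 30 and 60 min times exchanged, the half-lives were 54.0 min for Otx2, 55.7 min for Eomes and 85.8 min for Meis1.

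The label taken up before the washout gave a second estimate, the half-life that yields the 0 min share after 4 h at steady state. It was 92.5 min for Otx2 (83.8 to 102 from the posterior range), 105 min for Eomes (85.3 to 129) and 102 min for Meis1 (87.4 to 119). Otx2 and Eomes had longer values from uptake than the 55.4 and 56.0 min from washout, whereas the uptake range of Meis1 held its washout value of 88.6 min. Fgf5 had 68.9 min (46.6 to 97.5), Pou3f1 114 min (85.7 to 151), Sox17 99.3 min (46.6 to 216) and Gata6 156 min (77.3 to 344). By uptake the ranges of Otx2, Eomes and Meis1 overlapped, and the order seen in the washout was not seen there. Both estimates use the 0 min library.

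Total reads bear on these half-lives, since a share also falls when unlabelled RNA of the same gene builds up. Otx2 had 20.5, 25.8, 12.6, 26.6, 31.7 and 37.5 CPM (scaled with TMM) in time order, lowest at 60 min and highest at 150 min. Its slope was 0.35 ± 0.13 log2 per h (SE, 6 libraries) and did not pass in edgeR (adjusted p = 0.168). Eomes had 4.33, 3.83, 2.75, 5.02, 5.08 and 5.93 CPM, with the same low point, and a slope of 0.24 ± 0.12 log2 per h (edgeR adjusted p = 0.286). Fgf5 had 1.94, 2.09, 1.42, 3.27, 4.02 and 3.16, with every library from 90 min on above every earlier one, and a slope of 0.44 ± 0.16 log2 per h (edgeR adjusted p = 0.159).

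Meis1 was lowest at 60 min with 6.84 CPM and highest at 120 min with 13.9, and its slope was 0.20 ± 0.12 log2 per h (edgeR adjusted p = 0.334). Pou3f1, Gata6 and Sox17 had no low point at 60 min, and their slopes were 0.17 ± 0.12, 0.22 ± 0.27 and 0.15 ± 0.27 log2 per h, with edgeR adjusted p of 0.397, 0.646 and 0.757. By edgeR 0 of the 7 genes passed, against 0% of 15743 genes tested, although 21.7% of all genes had an unadjusted p under 0.05, as had Otx2 and Fgf5. DESeq2 called 4.13% of all genes, with 20.3% at an unadjusted p under 0.05, and 0 of the 5 genes of the set to which it gave an adjusted p, which it gave to neither Gata6 nor Sox17. The edgeR count rested on the 60 min library, without which 1413 genes passed. Without it Otx2 rose (0.30 ± 0.06 log2 per h, edgeR adjusted p = 0.0154), and with the 30 and 60 min times exchanged Otx2 and Fgf5 rose (edgeR adjusted p = 0.0118 and 0.0304). Scaled reads show a gene relative to its library, so whether absolute levels were steady was not measured.

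**Figure D3:**
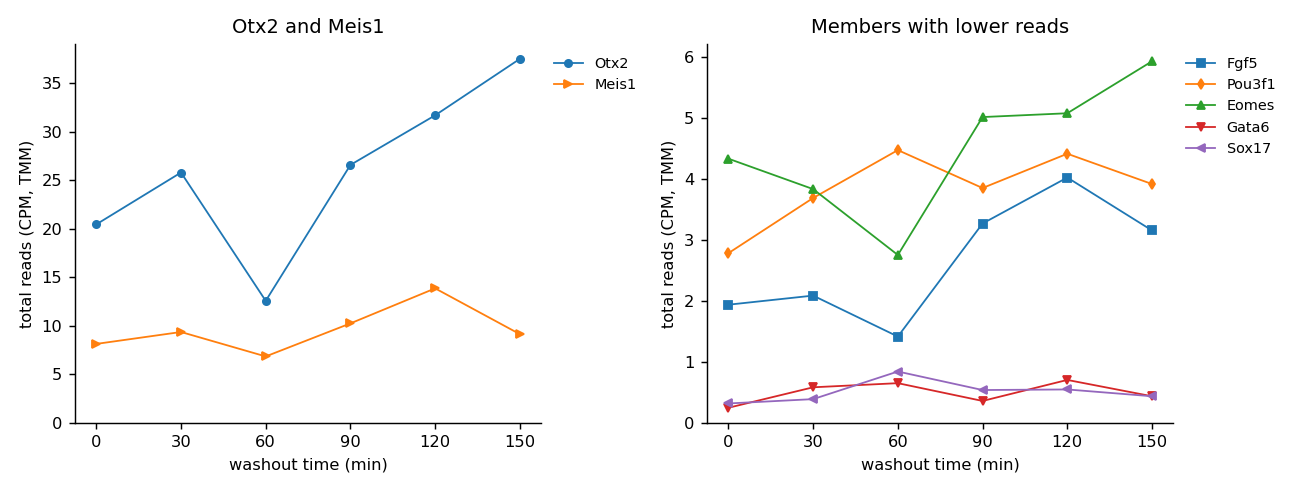
Total reads in CPM (TMM scaled) against washout time (min), 1 library per point. Left, Otx2 and Meis1; right, the genes with lower reads. Otx2 has its lowest value at 60 min (12.6) and its highest at 150 min (37.5).

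Other genes of the same lineages were counted from lists of known function and set beside the 52.3% of all genes that fell. Of 20 formative and primed epiblast genes 18 were tested and 12 fell, led by the forkhead factor Foxd3 (29.6 min) and the zinc finger factor Zic5 (30.5 min), with Sall2 (103 min) and Etv5 (150 min) the slowest that fell. Their median decay rate was 0.646 per h, against 0.247 per h as the median of the single rates of all genes tested. The DNA methyltransferase genes Dnmt3a and Dnmt3b and their cofactor Dnmt3l, also primed state genes, did not pass, with labelled shares at 0 min of 20.8%, 16.8% and 16.0%. Of 21 primitive streak and mesoderm genes 6 were tested and 5 fell. Among those were the ligands Nodal (31.7 min) and Bmp4 (39.6 min), the T-box paralog Tbx3 (45.6 min) and Wnt3 (53.3 min), and the median of the 6 was 0.947 per h. Tbx3 is also counted in the stem cell identity list. The streak genes T, Mixl1, Gsc, Evx1 and Mesp1 were below the read minimum, so that median does not cover them.

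Of 20 primitive and definitive endoderm genes 11 were tested and 3 fell, Hhex (59.9 min), Cubn (134 min) and Pdgfra (178 min). The median decay rate of this list was -0.095 per h. Its most abundant genes are the laminins, collagens and Sparc, which fibroblasts are known to express too, while Foxa2 and Cer1 had under 30 reads in all. Of 16 tested feeder markers 2 fell, Twist1 (99.1 min) and Twist2 (124 min), with a list median of -0.052 per h. Of the TALE homeobox genes other than Meis1, 8 of 12 were tested and 6 fell, from Tgif1 (68.7 min) and Tgif2 (72.8 min) to the paralog Meis2 (127 min) and Irx5 (139 min), with a list median of 0.428 per h. The Meis2 share was 56.8% at 0 min and 23.9% at 150 min, against 80.4% and 22.7% for Meis1, and the difference between these paralogs was not tested.

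Early neural genes were mostly too weak, with 2 of 13 tested. Of 14 stem cell identity genes 10 fell, from Fgf4 (29.3 min), a growth factor of the same family as Fgf5, and Klf2 (31.8 min) to Prdm14 (106 min) and Nr0b1 (157 min), with a list median of 0.556 per h. Of 5 tested trophoblast markers 2 fell, Tfap2c (54.4 min) and Gata2 (57.5 min), with a list median of 0.115 per h. The paralogs Gata4, Sox7, Pou3f2, Pou3f3, Otx1, T and Fgf8 were below the read minimum.

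**Figure D4:**
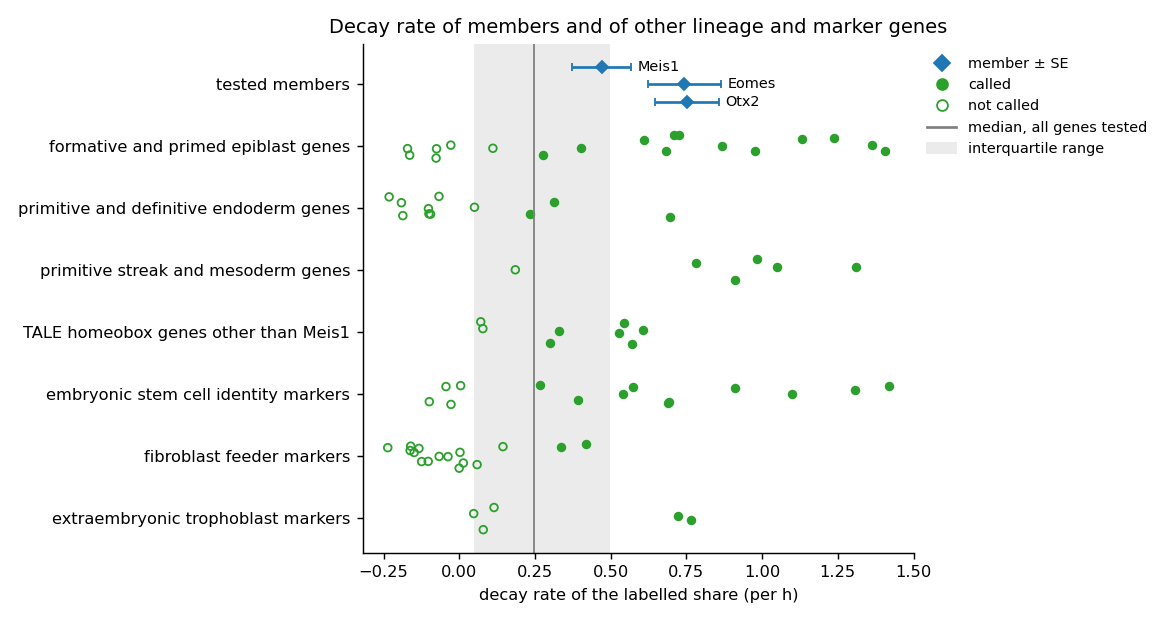
Decay rate of the labelled share (per h) for Otx2, Eomes and Meis1 (diamonds, with SE) and for tested genes of the lists other than the early neural one (circles, filled where limma called a change). The line and band are the median, 0.247 per h, and the interquartile range of the 11462 genes tested. Otx2 and Eomes lie right of the band, and most endoderm and feeder genes lie left of the line.

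The genes with the nearest course of labelled share were found by the distance in ln share over the 6 libraries, among the 7540 genes whose reads averaged 500 or more. Nearest to Otx2 were Mis12, Mul1 and Zfp329, at distances of 0.144, 0.161 and 0.189, with half-lives of 54.5, 54.9 and 54.7 min. Nearest to Eomes were Plekhg5, Polr3f and Frs2, at 0.206, 0.215 and 0.215, with 55.4, 53.2 and 57.6 min. Nearest to Meis1 were 4930427A07Rik, Cdc42se2 and Hist1h2bm, at 0.081, 0.102 and 0.107, with 90.4, 92.7 and 91.0 min. Hist1h2bm belongs to a multicopy family whose reads may be shared.

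The libraries were stranded, but no source used here says whether counting used the strand, so reads of antisense partners cannot be told apart from those of the gene. Exons of Otx2os1 overlap those of Otx2 on the opposite strand by 154 nt, and Otx2os1 had 2 to 14 reads per library. Opposite-strand exons also overlap those of Pou3f1 (330 nt), Eomes (118 nt), Gata6 (93 nt), Sox17 (804 nt) and Meis1 (896 nt). Of those 5 opposite-strand partners only 1010001N08Rik at Gata6 is also listed in the table used here, with 0 to 2 reads per library. On the same strand, exons of Gm37818 overlap those of Meis1 by 1029 nt and exons of Gm49154 those of Otx2 by 168 nt, and counting by strand would not separate these.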

How the data were processed

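Nuclear RNA from 6 cultures was made into stranded total RNA libraries and read as paired ends of 81 nt, per the labels' protocols. Reads were aligned with STAR 2.5.2b to mm10, per the submitters' processing notes. No source used here names the program behind the per-gene table, its annotation or its conversion rate. The deposited table holds raw read counts for each gene. It also holds conversion counts (T>C) and covered T positions, rounded to 4 significant digits. The authors also deposited the labelled share as a fraction (posterior mean, mode, 5% and 95% quantiles). Another 18 columns were not used.

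Decay rates were minus the slopes of ln share on time in limma 3.58.1, for genes that averaged 100 reads or more and had a share above 0 in every library, which left 4 residual degrees of freedom. Total counts were tested in edgeR 4.0.16 (quasi-likelihood, TMM, filterByExpr), with DESeq2 1.42.0 as an alternative. P-values were two-sided and adjusted by Benjamini-Hochberg over all genes tested, with a threshold of 0.05. Fits were checked on simulated data. Intervals of T>C rates are exact (Clopper-Pearson, 95%), limits for 0 conversions take 3 counts, and both cover counting error only. Both take each covered T as independent. Gene IDs were matched to GENCODE M21 (23223 of 23281 genes). The 7 genes, the lists and the alternatives were chosen with earlier results of these data known. The text names every one of the 7 genes, the 2 fastest and 2 slowest called genes of each list (the call among early neural genes is not reported here), the tested ones among a set list of paralogs (Meis2, Tbx3 and Fgf4), and the 3 genes nearest to each tested one. Dnmt3a, Dnmt3b and Dnmt3l, genes under the read minimum and the endoderm genes named for abundance were added after their values were seen. Each of the 6 sites shown is a 30 base window of its 3' UTR that no other exceeded in pentamers, and no Gata6 site is shown. Among windows with as many, the one with its pentamers nearest the centre was taken, and then the first.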

Additional observations from a re-analysis of the deposited data

How the results depend on the processing

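No paired analysis was possible because each washout time had 1 library. Otx2, Eomes and Meis1 kept their decline and their side of the threshold under every alternative in which they were tested. The number of the 7 genes that fell, 3, followed the read minimum by construction: 5 at 30 reads, 6 with none and 1 at 300. Over all genes 5996 fell and 136 rose. With each library left out in turn 3582 to 6335 fell and 56 to 230 rose, the fewest of both without the 150 min library. With posterior weights 2951 fell. On the logit scale 56 rose, on the raw T>C rate 0 rose, on labelled abundance 33 rose, and with the 30 and 60 min times exchanged 523 rose. For total reads edgeR called 0 genes and 0 of the 7. With each library left out in turn it called 0 to 1413, and 0 to 1 of the 7, the most without the 60 min library. It called 399 without a filter on low counts, 2884 (2 of the 7) with the times exchanged and 559 (1 of the 7) without the 30 and 60 min libraries, and DESeq2 called 650.

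With each library left out in turn, Eomes minus Meis1 was 0.146 to 0.394 per h, Otx2 minus the median 0.383 to 0.516 and Eomes minus the median 0.248 to 0.532. None of these passed with 120 orderings (smallest possible exact p = 0.00833 or 0.0167 before adjustment). Their adjusted p by exact permutation was 0.0833 to 0.16, 0.05 to 0.167 and 0.05 to 0.15. Otx2 minus Meis1 was 0.212 to 0.414, and Otx2 minus Eomes -0.096 to 0.268. On the raw T>C rate Eomes minus Meis1, Otx2 minus the median and Eomes minus the median were 0.481, 0.554 and 0.601, and on the logit scale 0.387, 0.906 and 0.886, and none passed (exact permutation, adjusted p = 0.0556 to 0.129). With the times exchanged Eomes minus Meis1 was 0.263 (exact permutation, adjusted p = 0.05, not under the threshold), and Meis1 minus the median was 0.167 and passed (exact permutation, adjusted p = 0.0167). The cause was not tested. Depth limits Gata6 and Sox17, with 70 and 73 reads in all.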
